A study of Mus musculus with 12 samples.

Results

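The proteasome subunit genes are the 50 protein-coding genes, of 54532 genes in the deposited table, whose symbol reads Psma to Psmg followed by a digit. They lie on 16 mouse chromosomes. By the known role of their products, 7 encode the alpha ring and 7 the beta ring of the 20S core, 9 the base and 8 the lid of the 19S regulatory particle, and these 31 genes are called the constitutive subunits here. Another 3 encode the catalytic subunits of the immunoproteasome (Psmb8, Psmb9 and Psmb10), 6 encode activators or an inhibitor of the core (Psme1, Psme2, Psme2b, Psme3, Psme4 and Psmf1), and 7 encode assembly chaperones (Psmd5, Psmd9, Psmd10 and Psmg1 to Psmg4). The rule also takes in 2 tissue-specific core subunits and Psmc3ip, which shares only the name, since its product is a recombination factor. Psma8, the alpha subunit of testis, and Psmb11, the beta subunit of thymic epithelium, had 0 counts in each of the 12 libraries, which allows up to 3 counts in a library. The remaining 48 members passed the filter on low counts, so 48 of 50 members were tested among 15122 genes.

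C2C12 cells, an established line of mouse myoblasts, were harvested 48 h after transfection with siRNA at 30 nM and were kept in 5% fetal bovine serum. The groups were siCONTROL (control siRNA), siKEAP1 (Keap1 targeted), siCCNF (Ccnf targeted) and siKEAP1/siCCNF (both targeted). Each group had 3 biological replicates of poly(A) RNA.

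KEAP1 is the substrate adaptor that marks the transcription factor NRF2 for degradation, and CCNF (cyclin F) is a substrate adaptor of an SCF ubiquitin ligase. All cells, controls included, received a transfected siRNA and came from a single line, and neither the Ccnf siRNA that was sequenced nor the share of each siRNA in the double depletion is given in the sources used here.

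The 26S proteasome degrades proteins that carry ubiquitin chains. Its 20S core is a barrel of alpha and beta rings with the proteolytic sites inside, and the 19S particle binds the substrate, removes its ubiquitin and threads it into the barrel through a ring of ATPases. Interferons replace the catalytic beta subunits by those of the immunoproteasome and raise the PA28 activator, which changes the peptides available for antigen presentation. The genes of the constitutive subunits can be raised together by the transcription factor NRF1 (Nfe2l1), which like NRF2 binds antioxidant response elements with a small MAF partner, and muscle uses the proteasome to remove myofibrillar proteins in atrophy.

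Promoters of 42 of the 50 members were found among RefSeq windows of 300 bases, 250 before and 50 after the transcription start (GRCm38.p6). The core of the antioxidant response element, TGACNNNGC on either strand, was present in 6 of the 42 members (14.3%) and in 14.0% of 27025 genes with a window. CCAAT, bound by NF-Y, was present in 15 members (35.7%, against 41.1% of genes), and an E2F motif, TTTCCCGC or TTTGGCGC, in Psmb9, Psmc2 and Psmc4 (7.14%, against 1.80%). The core of the interferon-stimulated response element, GAAA and GAAA with 2 bases between them on either strand, was searched after the values were seen. It was present in 5 members (11.9%, against 3.99%), namely Psmb3, Psmd4, Psmd9, Psme1 and Psmg4. No match of one motif in a printed stretch overlaps a match of another. The stretches below hold matches in some of the members whose calls are compared in the paragraph that follows them. Not printed are the matches of CCAAT and E2F, those in Psmc6 and Psmd12 and the interferon cores of Psmb3, Psmd4 and Psmd9. The interferon cores that are printed come from the members that rose after siCCNF. Each stretch has its match in capitals and reads 5′ to 3′ on the strand of its gene. The first 4 hold the antioxidant response element core, on the opposite strand in Psme4. They lie at chr11:30771728-30771804 (plus strand), chr14:54617994-54618082 (minus strand), chr11:70525308-70525386 (plus strand) and chr5:123228119-123228207 (plus strand), and the RefSeq start of Psmd9 falls inside the gene as the deposited table has it.
Psme4: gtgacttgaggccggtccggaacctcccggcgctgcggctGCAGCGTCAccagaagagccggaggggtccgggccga
Psmb5: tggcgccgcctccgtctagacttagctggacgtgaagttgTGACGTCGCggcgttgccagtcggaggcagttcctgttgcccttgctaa
Psmb6: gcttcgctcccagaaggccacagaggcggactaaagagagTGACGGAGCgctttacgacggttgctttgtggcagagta
Psmd9: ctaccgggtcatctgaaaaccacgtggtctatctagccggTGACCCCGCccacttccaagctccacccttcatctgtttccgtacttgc

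The last pair hold the interferon-stimulated response element core, on the opposite strand in Psme1, and lie at chr14:55578463-55578523 (plus strand) and chr13:34162939-34162993 (plus strand).
Psme1: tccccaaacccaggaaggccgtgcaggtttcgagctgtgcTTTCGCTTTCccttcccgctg
Psmg4: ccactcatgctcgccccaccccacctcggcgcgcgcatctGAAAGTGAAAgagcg

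The values of the members, given below, split the carriers of the antioxidant and the interferon core. Of the 6 carriers of TGACNNNGC, after siKEAP1 1 rose (Psme4), 1 fell (Psmd9) and Psmb5, Psmb6, Psmc6 and Psmd12 did not pass the test. Of the 5 carriers of the interferon core, 2 rose after siCCNF (Psme1 and Psmg4), Psmd4 fell and the other 2 did not pass. Of the 14 tested carriers of CCAAT, 1 rose and 2 fell after siKEAP1, and 2 rose and 8 fell after siCCNF. Among all genes tested, 20.4% were higher and 20.2% lower after siKEAP1, and 22.5% and 25.5% after siCCNF. Of the 3 carriers of an E2F motif, 0 were called after siKEAP1, while Psmb9 rose and Psmc2 fell after siCCNF. A match is only a string of letters in the window.

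The libraries held 18464209 to 37743198 counts, and values are given as CPM, the counts of a gene scaled to a common library total by TMM. The siRNAs lowered their targets, and Ccnf was also lower after siKEAP1 alone (adjusted p under 0.05, edgeR). Keap1 was at 89.97, 89.04 and 84.3 CPM in siCONTROL, 12.3, 12.8 and 12.7 in siKEAP1, 86.5, 88.6 and 80.3 in siCCNF and 22.2, 27.01 and 23.1 in siKEAP1/siCCNF cells, and Ccnf at 85.5, 80.1 and 77.7, 56.8, 64.9 and 56.4, 19.7, 20.5 and 21.3 and 23.7, 24.1 and 25.6 CPM. The 6 myoblast markers (Myod1, Myf5, Des, Cdh15, Chrna1 and Vcam1) were detected in every group, but their sum fell from 1450–1771 CPM in siCONTROL to 884–917, 668–703 and 656–738 CPM in the 3 depleted groups, and that of 4 differentiation markers from 43.3–89.3 to 1.38–1.63, 13.7–17.8 and 3.43–4.31 CPM. Ptprc and Adgre1, defining markers of leukocytes, were near 0, the summed leukocyte list reached 24.3 CPM through Cd14 and Lyz2, and endothelial and epithelial lists reached at most 1.38 and 2.03 CPM. The part of these markers in the member values was not tested. In these bulk samples, fewer cells of a type and less RNA per cell cannot be told apart.

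A pair of libraries stood apart from their groups in the members themselves. The mean log2 CPM of the 31 constitutive subunits was 7.37, 7.04 and 6.997 in the siCONTROL libraries and 7.03, 7.01 and 7.22 in the siKEAP1/siCCNF libraries, so that siCONTROL library 1 and siKEAP1/siCCNF library 3 lay above the others of their group. In each of these libraries, 30 of the 31 subunits had their highest value of the group. The siKEAP1 libraries stood at 7.21, 7.23 and 7.17 and the siCCNF libraries at 7.01, 6.95 and 6.92, without such a gap. In the same pair of libraries the deviation of genes from their group mean fell with gene length (Pearson r = -0.31 and -0.28 across 15122 genes, which are not independent replicates), and the constitutive subunits are shorter (median 2808 bases) than the genes tested (median 3930 bases). The part of gene length in the member values was not tested beyond the alternative that removes its trend, and each main count is given below also without this pair, a choice made after seeing the data. These settings did not move the subunits alike. The difference of siKEAP1 from siCONTROL was positive for 20 of the 31 in the main fit, 16 with the trend removed and 25 without the pair. The pair holds the libraries in which 30 of the 31 subunits were highest. Leaving it out lowers the siCONTROL mean of the subunits, which favours higher calls against siCONTROL, and narrows their spread. Calls and p-values without the pair are therefore descriptions and not independent tests.

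**Figure D1:**
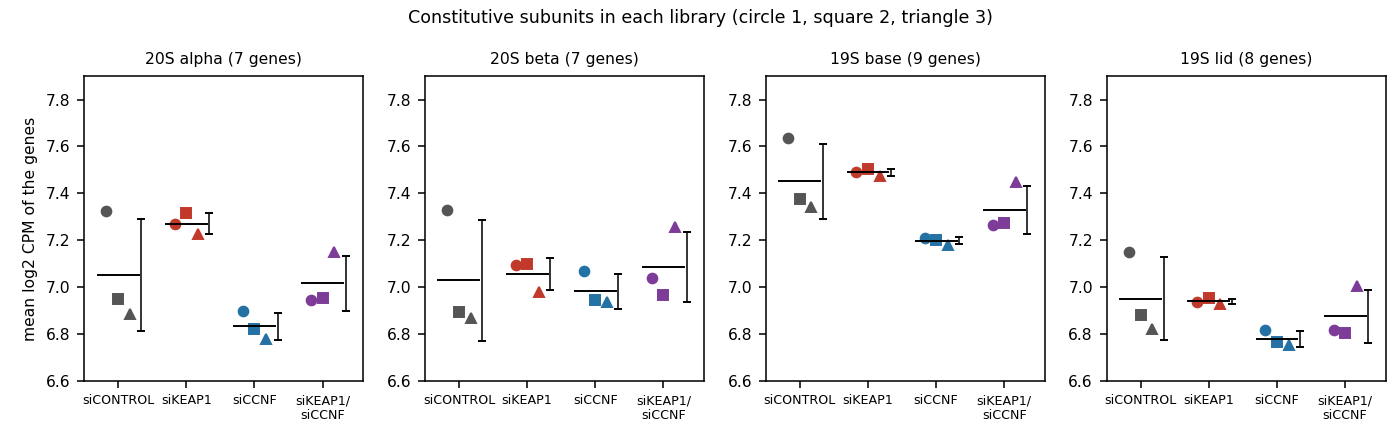
Mean log2 CPM of the alpha, beta, base and lid genes (vertical axis, not starting at 0) in each library of the 4 groups. Circles, squares and triangles are libraries 1, 2 and 3, lines are group means and bars are SD (n = 3). The siCONTROL circle and the siKEAP1/siCCNF triangle lie above the other libraries of their group in all 4 panels.

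In siCONTROL cells the constitutive subunits were within a narrow range when set per length. Their mean FPKM (fragments scaled by gene length and library total, the authors' values) ran from 17.5 for Psmd11 to 110.2 for Psma6, a ratio of 6.31, with a median of 44.9. Alpha genes ran from 32.5 (Psma3) to 110.2 FPKM (Psma6), beta genes from 33.0 (Psmb7) to 107 FPKM (Psmb4), base genes from 29.8 (Psmc2) to 109.5 FPKM (Psmc3) and lid genes from 17.5 (Psmd11) to 61.8 FPKM (Psmd7). The immunoproteasome was far below, with Psmb9 at 0.563 ± 0.166, Psmb8 at 1.87 ± 0.871 and Psmb10 at 9.35 ± 0.731 FPKM (SD, n = 3). Activators and the inhibitor ran from 4.69 (Psmf1) to 45.7 FPKM (Psme2), and the chaperones from 2.82 (Psmg3) to 36.6 FPKM (Psmg4).

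Depletion of KEAP1 raised 9 and lowered 6 of the 48 tested members at an adjusted p under 0.05 (the quasi-likelihood test of edgeR, with p-values adjusted over all genes tested by Benjamini-Hochberg, as for every call below). Among all genes tested, 20.4% were called higher and 20.2% lower, so the members' shares lay near the background. Of the 31 constitutive subunits, 5 rose (Psma5, Psma7, Psmd1, Psmd2 and Psmd11) and 4 fell (Psmb7, Psmc1, Psmc3 and Psmd3). Their median log2 difference was 0.07, against -0.01 over all genes. This count rested on siCONTROL library 1: without it 21 members were higher, and without the pair of libraries 25 members were higher and 6 lower, against 23.6% and 25.0% of 15545 genes. The median of the constitutive subunits was then 0.21, with 19 higher and 4 lower. With all libraries, no member passed 2-fold and an adjusted p under 0.05 (a count of 0 also by DESeq2 and by limma), where 11.5% of genes did.

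Depletion of CCNF raised 11 and lowered 17 of the 48 members, against 22.5% and 25.5% of all genes. The constitutive subunits were lowered more often than raised, with 13 lower, 2 higher (Psmb1 and Psmd8) and a median log2 difference of -0.18, while the median of all genes was 0.01. The 13 were 6 of 9 base, 5 of 8 lid, 2 of 7 alpha and 0 of 7 beta genes. Among them the calls of Psmc1, Psmc3, Psmd1, Psmd11 and Psmd12 did not hold in every leave-out, as given below. Without siCCNF library 1, siCONTROL library 2 or siCONTROL library 3, 7 members were higher in each case. Without the pair of libraries, 12 members were higher and 19 lower, against 26.7% and 27.9% of genes, and the median of the constitutive subunits moved to -0.07. Of the 31 differences of the constitutive subunits, 28 were negative with all libraries, and 19 without siCONTROL library 1 or without the pair. Past 2-fold were Psmb10 and Psmc3ip, against 11.4% of all genes, and neither passed it with limma on log2(FPKM + 1).

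In cells depleted of both, 10 members were higher and 8 lower than in siCONTROL cells, against 20.6% and 23.6% of all genes. Of the constitutive subunits 2 were higher and 5 lower, with a median of -0.04 against 0.01 over all genes. Without siKEAP1/siCCNF library 1, siKEAP1/siCCNF library 2 or siCONTROL library 1, 3, 4 or 5 members were lower, in that order. A fit of the compared groups alone left 2 members lower. When the pair of libraries was left out, 14 were higher and 12 lower, against 23.4% and 25.4%. Psmb8 and Psmb10 passed 2-fold, against 10.3% of genes, and limma on log2(FPKM + 1) left 1 of them past it. The comparisons with siCONTROL share its 3 libraries.

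**Figure D2:**
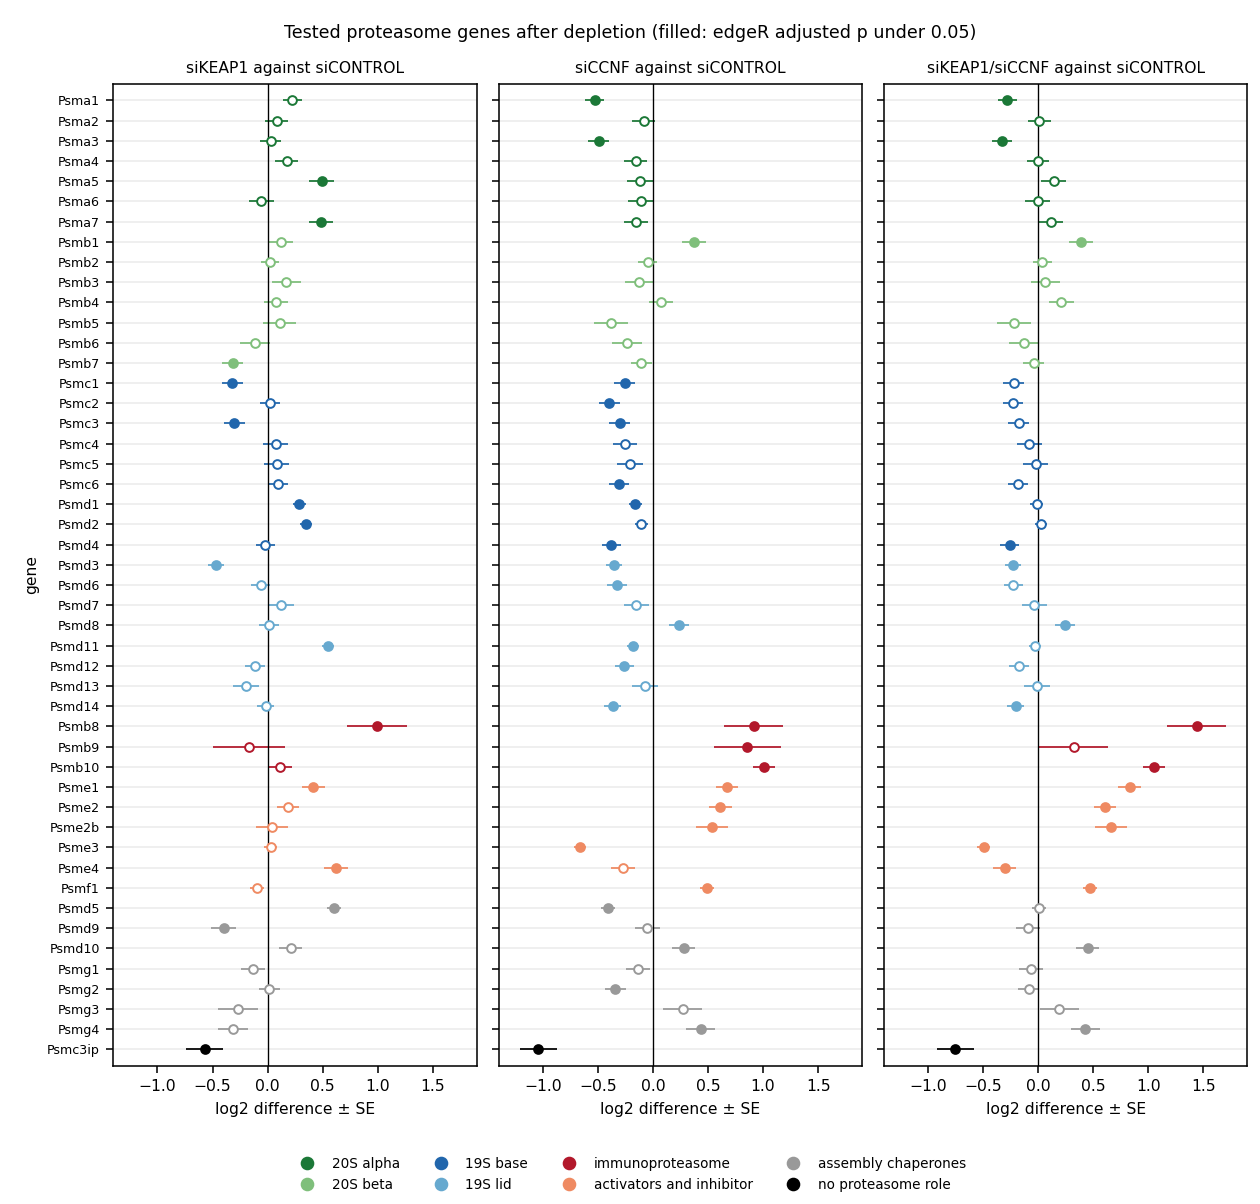
Log2 difference from siCONTROL (horizontal axis, points, with bars for the SE) of the 48 tested members after siKEAP1, siCCNF and both, from edgeR on all 12 libraries, coloured by role. Filled points passed an adjusted p under 0.05. After siCCNF, 11 of the 17 base and lid genes are filled below 0 and 1 above, while the filled immunoproteasome genes lie above 0 in every panel.

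The alpha ring closes the core and opens as a gate when an activator docks. After siKEAP1, 2 of its 7 genes rose, Psma5 and Psma7. Psma5 was at 125, 92.2 and 86.4 CPM in siCONTROL, 143, 146 and 139 CPM in siKEAP1, 97.3, 94.2 and 89.02 CPM in siCCNF and 105, 107 and 124 CPM in siKEAP1/siCCNF cells. All siKEAP1 libraries lay above all siCONTROL libraries, and the log2 difference was 0.49 ± 0.12 (SE; adjusted p = 0.004, edgeR). Psma7 rose by 0.49 ± 0.11 on the log2 scale (adjusted p = 0.00304, edgeR). In the double depletion both were lower than after siKEAP1, by -0.35 ± 0.12 and -0.37 ± 0.11 as log2 differences, although neither call held in every leave-out (Psma5 -0.30 and Psma7 -0.32 without siKEAP1/siCCNF library 1, and -0.33 and -0.31 without siKEAP1 library 2; Psma5 also -0.32 without siKEAP1/siCCNF library 2).

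Psma1 and Psma3 instead fell after siCCNF. Psma1 was at 122, 99.4 and 96.8 CPM in siCONTROL, 125, 124 and 124 CPM in siKEAP1, 75.8, 73.02 and 71.9 CPM in siCCNF and 84.4, 82.4 and 95.7 CPM in siKEAP1/siCCNF cells. The siCCNF and siKEAP1/siCCNF libraries lay below all siCONTROL libraries, and its log2 difference was -0.53 ± 0.087 after siCCNF (adjusted p = 0.000251, edgeR). After siKEAP1 its libraries lay above the controls, but the difference of 0.22 ± 0.087 missed the threshold (adjusted p = 0.0563, edgeR) and passed it with DESeq2, with limma and in 2 of 12 leave-outs, without siCONTROL library 1 (0.33) or siKEAP1/siCCNF library 3. Psma3 fell by 0.49 on the log2 scale after siCCNF (SE 0.095, adjusted p = 0.000833, edgeR), and was at 149, 121 and 112 CPM in siCONTROL, 129, 133 and 128 CPM in siKEAP1, 95.5, 87.6 and 88.7 CPM in siCCNF and 96.4, 97.2 and 111 CPM in siKEAP1/siCCNF cells. Its siCCNF libraries lay below all siCONTROL libraries. In the double depletion Psma1 and Psma3 differed from siCONTROL by -0.28 ± 0.087 and -0.33 ± 0.095 (adjusted p = 0.019 and 0.0129, edgeR). The call of Psma1 was lost without siKEAP1/siCCNF library 1 or 2, and that of Psma3 without siKEAP1/siCCNF library 1. A fit of the compared groups alone lost both. Psma2, Psma4 and Psma6 passed in no comparison with siCONTROL. Without the pair of libraries, 6 of the 7 alpha genes were higher after siKEAP1, all except Psma6 (0.12).

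Of the 7 beta genes, Psmb5, Psmb6 and Psmb7 carry the chymotrypsin-like, caspase-like and trypsin-like sites. Psmb7 was at 134, 104 and 103 CPM in siCONTROL, 92.8, 92.9 and 88.5 CPM in siKEAP1, 113, 102 and 102 CPM in siCCNF and 108, 106 and 118 CPM in siKEAP1/siCCNF cells. It was lower in all siKEAP1 libraries than in any siCONTROL library, with a log2 difference of -0.32 ± 0.10 (adjusted p = 0.0169, edgeR) that lost its call without siKEAP1 library 3 (-0.30). Reads of Psmb7 and Nek6, on the opposite strand, share 11.8% of the gene's length, and the strand setting of the counting is not given in the sources used here. Psmb5 was at 89.7, 57.9 and 63.1 CPM in siCONTROL, 82.2, 74.8 and 70.9 CPM in siKEAP1, 55.4, 53.3 and 53.3 CPM in siCCNF and 55.04, 53.3 and 73.1 CPM in siKEAP1/siCCNF cells. Its siCCNF libraries lay below the controls, but the log2 difference of -0.38 ± 0.15 missed the threshold (adjusted p = 0.0526, edgeR). It passed with DESeq2, total library sizes, no filter or the length trend removed, and without the pair of libraries it was -0.16 (adjusted p = 0.0424, edgeR). Psmb6 was at 197, 141 and 138 CPM in siCONTROL, 153, 153 and 133 CPM in siKEAP1, 152, 127 and 127 CPM in siCCNF and 135, 133 and 167 CPM in siKEAP1/siCCNF cells. Its siCONTROL library 1 was the highest of the 12. It did not pass in any of the 3 comparisons with siCONTROL, where its log2 differences were -0.12, -0.23 and -0.13.

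The beta gene that rose was Psmb1, a subunit of the ring without a catalytic site. It was at 280.4, 214 and 203 CPM in siCONTROL, 257, 265 and 239 CPM in siKEAP1, 323, 289 and 291 CPM in siCCNF and 295, 281 and 337 CPM in siKEAP1/siCCNF cells. The siCCNF and siKEAP1/siCCNF libraries all lay above the controls, with log2 differences of 0.37 ± 0.11 (adjusted p = 0.0137) and 0.39 ± 0.11 (adjusted p = 0.012, both edgeR). Both calls were lost without siCONTROL library 2 (0.32 and 0.33) or 3 (0.28 and 0.29), and the first also without siCCNF library 1 (0.32). Without the pair of libraries the differences were 0.53 and 0.46, and both passed. Psmb2, Psmb3 and Psmb4, which also lack catalytic sites, were not called against siCONTROL with all libraries. Psmb3 and Psmb4 passed after siKEAP1 without the pair (0.37 and 0.22), as did Psmb1 (0.27) and Psmb5 (0.32).

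The base holds the ATPase ring (Psmc1 to Psmc6), the scaffolds Psmd1 and Psmd2, and the ubiquitin receptor Psmd4. After siKEAP1, with all 12 libraries, the scaffolds rose and 2 ATPase genes fell. Psmd2 was at 437, 413 and 395 CPM in siCONTROL, 523, 542 and 518 CPM in siKEAP1, 384, 395 and 379 CPM in siCCNF and 424, 413 and 431 CPM in siKEAP1/siCCNF cells. All siKEAP1 libraries lay above all others, at a log2 difference from siCONTROL of 0.35 ± 0.056 (adjusted p = 0.000268, edgeR). Psmd1 rose by 0.29 ± 0.059 (adjusted p = 0.00158, edgeR). Psmc3 was at 333, 269 and 261 CPM in siCONTROL, 240.3, 234 and 227 CPM in siKEAP1, 239.7, 234 and 227 CPM in siCCNF and 243, 234 and 288 CPM in siKEAP1/siCCNF cells. Its siKEAP1 and siCCNF libraries both lay below the controls, each with a log2 difference of -0.30 ± 0.10 (adjusted p = 0.0234 and 0.0198, edgeR), and both calls were lost without siCONTROL library 1 (-0.19 and -0.18) or without library 2 or 3 of the depleted group (-0.31 and -0.28 for siKEAP1, -0.30 and -0.28 for siCCNF). Psmc3 shares 8.25% of its length with Slc39a13 on the opposite strand. Psmc1 fell by 0.32 (SE 0.10) after siKEAP1. Without the pair of libraries 6 base genes were higher and 2 lower, since Psmc2 (0.12), Psmc4 (0.22), Psmc5 (0.23) and Psmc6 (0.21) also passed as higher.

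After siCCNF, 6 base genes fell, Psmc1, Psmc2, Psmc3, Psmc6, Psmd1 and Psmd4. Psmc2 was at 174, 140.4 and 139 CPM in siCONTROL, 152, 149 and 159 CPM in siKEAP1, 116, 114 and 116 CPM in siCCNF and 122, 120.0 and 145 CPM in siKEAP1/siCCNF cells. Its siCCNF libraries lay below all siCONTROL libraries, at a log2 difference of -0.39 ± 0.093 (adjusted p = 0.00341, edgeR). Psmd4 was at 138, 119 and 111 CPM in siCONTROL, 121, 121 and 121 CPM in siKEAP1, 96.02, 95.6 and 91.8 CPM in siCCNF and 95.4, 98.1 and 115 CPM in siKEAP1/siCCNF cells. Here too the siCCNF libraries lay below the controls (-0.38 ± 0.085, adjusted p = 0.00262, edgeR), and Psmd4 was the base gene that also passed in the double depletion (-0.26 ± 0.085, adjusted p = 0.0261, edgeR), a call lost without siCONTROL library 1 (-0.17) or siKEAP1/siCCNF library 1 or 2 (-0.21 and -0.23). Psmc6 differed by -0.31 ± 0.09 after siCCNF. The calls of Psmc1 (-0.26 ± 0.10) and Psmd1 (-0.16 ± 0.059) were close to the threshold (adjusted p = 0.0396 and 0.0391, edgeR) and were kept in 4 and 3 of the 12 leave-outs, in which the log2 differences ran from -0.35 to -0.12 and from -0.20 to -0.12.

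The lid carries the deubiquitinase Psmd14 and a set of scaffold subunits that clamp the base to the core. Psmd11, whose product bridges lid and core, had the largest rise of the constitutive subunits after siKEAP1 with all 12 libraries (without the pair, Psma5 at 0.66 and Psma7 at 0.63 exceeded its 0.56). It was at 116, 109 and 112 CPM in siCONTROL, 163, 167 and 163 CPM in siKEAP1, 102, 95.7 and 99.7 CPM in siCCNF and 107, 109 and 114 CPM in siKEAP1/siCCNF cells. The siKEAP1 libraries lay above all 9 others, at a log2 difference from siCONTROL of 0.55 ± 0.055 (adjusted p = 3.97e-06, edgeR), and the fall after siCCNF was -0.18 ± 0.055 (adjusted p = 0.0153, edgeR), lost without siCCNF library 2 (-0.15). In the double depletion Psmd11 did not pass against siCONTROL (-0.03 ± 0.055).

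Psmd3, another lid scaffold, fell after siKEAP1. It was at 238, 216 and 205 CPM in siCONTROL, 163, 158 and 155 CPM in siKEAP1, 177, 170.3 and 168 CPM in siCCNF and 178, 177 and 207 CPM in siKEAP1/siCCNF cells. All siKEAP1 and siCCNF libraries lay below all siCONTROL libraries, and siKEAP1/siCCNF library 3 reached into the control range. The log2 differences were -0.47 ± 0.075 after siKEAP1 (adjusted p = 0.000233), -0.35 ± 0.075 after siCCNF (adjusted p = 0.00164) and -0.23 ± 0.075 after both (adjusted p = 0.0237, all edgeR), the last lost without siCONTROL library 1 (-0.18) or siKEAP1/siCCNF library 1 or 2 (-0.19 and -0.20). The lid fell in 5 of 8 genes after siCCNF, which besides Psmd3 and Psmd11 were Psmd6 (-0.33 ± 0.087), Psmd12 (-0.26 ± 0.089) and Psmd14 (-0.36 ± 0.077). Psmd12 lost its call without siCONTROL library 1 (-0.14) or siCCNF library 2 or 3 (-0.24 and -0.24).

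Psmd14 was at 120.1, 102 and 99.9 CPM in siCONTROL, 102, 108 and 108 CPM in siKEAP1, 82.9, 84.7 and 82.7 CPM in siCCNF and 89.7, 89.01 and 101 CPM in siKEAP1/siCCNF cells. Its siCCNF libraries lay below every siCONTROL library (adjusted p = 0.00173, edgeR), while the call in the double depletion (-0.20 ± 0.077, adjusted p = 0.0477, edgeR) held in 3 of 12 leave-outs, over which its log2 difference ran from -0.27 to -0.12. Of the 8 lid genes the rule takes in, Psmd8 was the one that rose, and its control library 1 overlapped the depleted groups. It was at 131, 102 and 99.1 CPM in siCONTROL, 111, 112 and 111 CPM in siKEAP1, 129.9, 132 and 130.0 CPM in siCCNF and 128, 124 and 141 CPM in siKEAP1/siCCNF cells. The log2 difference after siCCNF was 0.24 ± 0.092 (adjusted p = 0.0469, edgeR; kept in 3 of 12 leave-outs, 0.16 to 0.38), and 0.38 without the pair of libraries. Psmd7 and Psmd13 passed in no comparison with siCONTROL with all libraries, and without the pair Psmd7 was higher after siKEAP1 (0.29).

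With all 12 libraries, the largest rises of any member after siCCNF and after both siRNAs were those of immunoproteasome genes. After siCCNF, Psmb8, Psmb9 and Psmb10 all passed, after both siRNAs Psmb8 and Psmb10, and after siKEAP1 Psmb8. Psmb8 and Psmb9 are neighbours on chromosome 17 (34181988 to 34201454, GRCm38), on opposite strands and 9956 bases apart, and Psmb10 lies on chromosome 8. Psmb10, which takes the place of Psmb7, was at 17.1, 14.6 and 16.4 CPM in siCONTROL, 17.7, 17.4 and 17.2 CPM in siKEAP1, 30.6, 37.4 and 29.2 CPM in siCCNF and 31.7, 32.6 and 35.7 CPM in siKEAP1/siCCNF cells. The siCCNF and siKEAP1/siCCNF libraries lay above all others without overlap, at 2.01-fold and 2.07-fold the control (log2 difference 1.01 ± 0.10, adjusted p = 3.54e-06, and 1.05 ± 0.10, adjusted p = 2.95e-06, edgeR). After siKEAP1 it did not pass (0.12 ± 0.10, adjusted p = 0.408, edgeR).

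Psmb8, which replaces the chymotrypsin-like Psmb5, was at 2.38, 6.62 and 6.45 CPM in siCONTROL, 8.96, 11.6 and 9.91 CPM in siKEAP1, 8.72, 11.1 and 9.13 CPM in siCCNF and 12.02, 14.5 and 15.1 CPM in siKEAP1/siCCNF cells. The lowest library was siCONTROL library 1, and every depleted library lay above every control. The log2 differences were 0.99 ± 0.27 after siKEAP1 (adjusted p = 0.0101), 0.92 ± 0.27 after siCCNF (adjusted p = 0.0129) and 1.44 ± 0.27 after both (adjusted p = 0.000689, all edgeR). With the pair of libraries left out they were 0.63, 0.56 and 1.02, each past the threshold, and without siCONTROL library 1 alone the first was 0.63 and the second 0.56.

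Psmb9, which replaces Psmb6, was close to the limit of detection with 32 counts in its lowest siCONTROL and 22 in its lowest siKEAP1 library. It was at 1.70, 1.74 and 2.79 CPM in siCONTROL, 1.02, 2.35 and 2.15 CPM in siKEAP1, 3.71, 4.94 and 2.76 CPM in siCCNF and 2.38, 3.02 and 2.37 CPM in siKEAP1/siCCNF cells. The siCCNF libraries were not separated from the controls, since the lowest of them lay below the highest control. Its call after siCCNF (0.86 ± 0.30, adjusted p = 0.0331, edgeR) was lost without siCONTROL library 1 or 2 (0.72 and 0.75), siCCNF library 1 or 2 (0.87 and 0.64) and without the pair (0.72, adjusted p = 0.076, edgeR). Psmb9 also shares 5.79% of its length with Tap1 on the opposite strand.

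**Figure D3:**
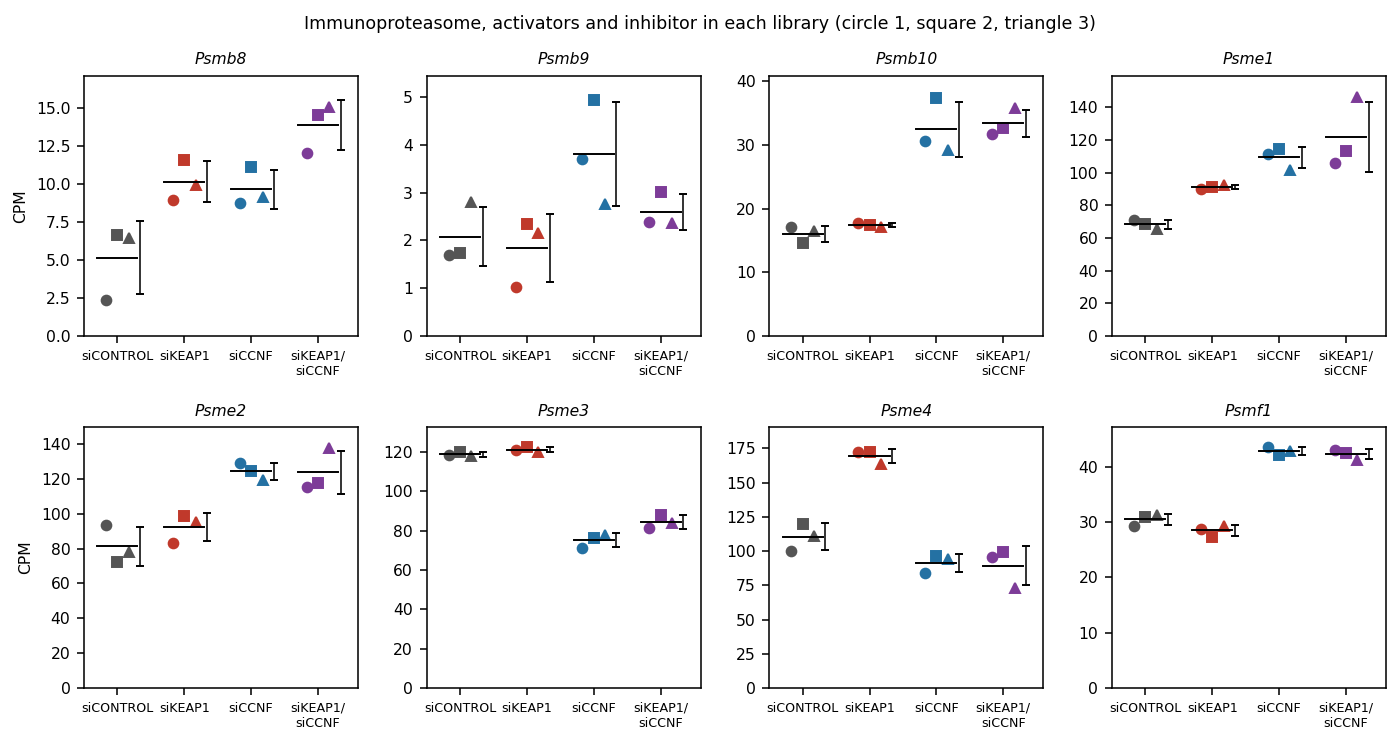
CPM (vertical axes, from 0) of the 3 immunoproteasome genes, the 4 activator genes Psme1 to Psme4 and the inhibitor gene Psmf1 in the 12 libraries. Circles, squares and triangles are libraries 1, 2 and 3 of a group, lines are means and bars are SD (n = 3). Psmb10, Psme1, Psme2 and Psmf1 are above the controls in all siCCNF and siKEAP1/siCCNF libraries, Psme3 is below them, and Psme4 is highest in siKEAP1.

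The share of each immunoproteasome gene in the summed FPKM of its catalytic pair gives the same data per length. Psmb10 made up 22.2% ± 1.94 of Psmb10 and Psmb7 in siCONTROL, 27.7% ± 0.380 in siKEAP1, 37.998% ± 3.80 in siCCNF and 37.6% ± 0.630 in siKEAP1/siCCNF cells (SD, n = 3). Every depleted library lay above the controls. In siKEAP1 cells the mean FPKM of Psmb10 was 10.2, against 9.35 in siCONTROL, and was not called. That of Psmb7 was 26.6 against 33.0 and was called lower. The share of Psmb8 in Psmb8 and Psmb5 was 2.58% ± 1.497, 4.23% ± 0.705, 5.55% ± 0.775 and 7.09% ± 0.995 in the same order, and the lowest value, 0.863%, was that of siCONTROL library 1. The share of Psmb9 in Psmb9 and Psmb6 was 0.697% ± 0.299, 0.646% ± 0.264, 1.43% ± 0.461 and 0.921% ± 0.216. So the constitutive member had the larger share of all 3 pairs in every group.

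**Figure D4:**
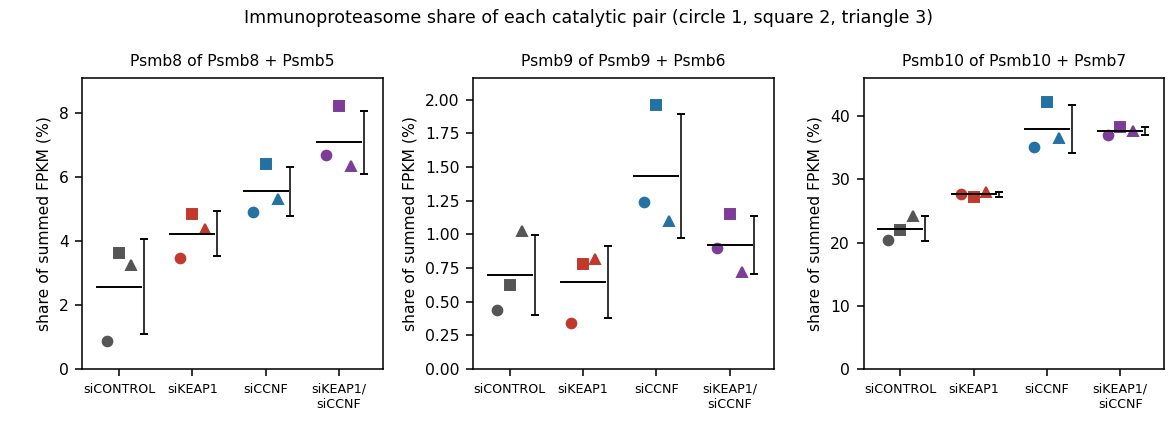
Share of the immunoproteasome gene in the summed FPKM of each catalytic pair (vertical axes in %, from 0) in the 12 libraries. Circles, squares and triangles are libraries 1, 2 and 3, lines are means and bars are SD (n = 3). The Psmb10 share stands at 22.2% in siCONTROL and 37.998% in siCCNF, and the Psmb8 share at 2.58% and 5.55%.

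Genes of interferon signalling and antigen presentation were set beside these members. Of 10 genes in this list, 6 were higher after siKEAP1 (median log2 difference 0.41), 8 higher and 1 lower after siCCNF (median 0.85) and 8 higher after both (median 0.80). Over all genes tested, 20.4% were higher after siKEAP1, 22.5% higher and 25.5% lower after siCCNF, and 20.6% higher after both. Without the pair of libraries these shares were 23.6%, 26.7% and 27.9%, and 23.4%. In siCONTROL library 1 all 10 genes had the lowest value of their group (Irf9 was at 11.97, 36.6 and 40.8 CPM and Stat2 at 21.1, 41.8 and 43.9 CPM in the 3 siCONTROL libraries). Without that library 6 were higher after siKEAP1 (median 0.28), 6 higher and 1 lower after siCCNF (median 0.62) and 4 higher after both (median 0.51), and without the pair 6 were higher, 7 higher and 1 lower, and 6 higher (medians 0.28, 0.61 and 0.51). The summed list stood at 671–830 CPM in siCONTROL, 892–1123 in siKEAP1, 1375–1578 in siCCNF and 1375–1509 CPM in siKEAP1/siCCNF cells. Tapbp (tapasin) rose by 1.09 ± 0.07 and B2m, the light chain of class I molecules, by 0.96 ± 0.092 after siCCNF on the log2 scale. Nlrc5, the activator of class I genes, rose by 2.00 ± 0.46 after siKEAP1 (1.58 without the pair) and Irf7 by 1.54 ± 0.44, the latter not without siKEAP1 library 2 (1.10 to 1.88 over the leave-outs). Tap2, a peptide transporter, was the gene that fell after siCCNF (-0.19 ± 0.063, kept in 7 of 12 leave-outs, -0.21 to -0.17).

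Psme1 and Psme2 encode the alpha and beta subunits of PA28, an interferon-inducible cap of the core. They lie 5911 bases apart on chromosome 14 (55578123 to 55591113), on opposite strands. Psme1 was at 71.05, 68.6 and 65.7 CPM in siCONTROL, 89.8, 91.5 and 92.7 CPM in siKEAP1, 112, 115 and 102 CPM in siCCNF and 106, 113 and 146 CPM in siKEAP1/siCCNF cells. All depleted libraries lay above all controls, with log2 differences of 0.42 ± 0.10 after siKEAP1 (adjusted p = 0.00519), 0.68 ± 0.10 after siCCNF (adjusted p = 0.000117) and 0.83 ± 0.10 after both (adjusted p = 2.36e-05, all edgeR). Psme2 was at 93.6, 72.3 and 77.8 CPM in siCONTROL, 83.4, 98.5 and 95.3 CPM in siKEAP1, 129, 125 and 119 CPM in siCCNF and 116, 118 and 138 CPM in siKEAP1/siCCNF cells. Its siKEAP1 libraries overlapped the controls (0.19 ± 0.10, adjusted p = 0.169, edgeR), while those of the other groups lay above them (0.61 ± 0.10 and 0.60 ± 0.10, adjusted p = 0.000257 and 0.000322, edgeR). Psme2b, a near-identical copy of Psme2 on chromosome 11, was at 33.9, 31.1 and 29.04 CPM in siCONTROL, 38.6, 27.99 and 30.2 CPM in siKEAP1, 49.9, 46.3 and 40.7 CPM in siCCNF and 43.5, 44.8 and 60.8 CPM in siKEAP1/siCCNF cells. Its siCCNF and siKEAP1/siCCNF libraries lay above the controls (0.54 ± 0.14 and 0.66 ± 0.14), but reads of both genes may have been split between them and its values are uncertain.

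Psme3, the nuclear PA28 gamma, fell where its relatives rose. It was at 119, 120.2 and 118 CPM in siCONTROL, 121, 122 and 120.0 CPM in siKEAP1, 71.4, 76.4 and 78.02 CPM in siCCNF and 81.3, 88.1 and 83.9 CPM in siKEAP1/siCCNF cells. The siCCNF and siKEAP1/siCCNF libraries lay below all others, at 0.633 and 0.710 of the control (log2 difference -0.66 ± 0.057, adjusted p = 9.88e-07, and -0.49 ± 0.057, adjusted p = 1.41e-05, edgeR). The siKEAP1 libraries differed from the controls by 0.03 ± 0.057 (adjusted p = 0.734, edgeR).

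Psme4 encodes PA200, a single-chain activator that caps the core without ATP. It was at 100.2, 119.8 and 111 CPM in siCONTROL, 172, 172 and 164 CPM in siKEAP1, 84.02, 96.1 and 94.5 CPM in siCCNF and 95.4, 99.5 and 72.98 CPM in siKEAP1/siCCNF cells. The siKEAP1 libraries lay above all others, with a log2 difference from siCONTROL of 0.62 ± 0.11 (adjusted p = 0.000414, edgeR), and those of siCCNF and of both lay below the controls. The difference after siCCNF missed the threshold (-0.27 ± 0.11, adjusted p = 0.0517, edgeR). That of the double depletion passed it (-0.30 ± 0.11, adjusted p = 0.0333, edgeR) but not without siCONTROL library 2 or 3 (-0.25 and -0.31) or siKEAP1/siCCNF library 3 (-0.18). Psmf1, the inhibitor PI31, was at 29.3, 30.9 and 31.2 CPM in siCONTROL, 28.7, 27.3 and 29.3 CPM in siKEAP1, 43.6, 42.03 and 42.7 CPM in siCCNF and 42.98, 42.4 and 41.3 CPM in siKEAP1/siCCNF cells. Its siCCNF and siKEAP1/siCCNF libraries lay above every siCONTROL and siKEAP1 library (0.49 ± 0.061 and 0.47 ± 0.061, adjusted p = 2.24e-05 and 3.78e-05, edgeR).

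Among the 7 assembly chaperones, Psmd5, which holds ATPase subunits apart from the core during assembly of the base, had the largest difference after siKEAP1. It was at 85.6, 83.99 and 76.4 CPM in siCONTROL, 125, 125 and 123 CPM in siKEAP1, 60.3, 61.1 and 64.04 CPM in siCCNF and 83.8, 78.8 and 84.5 CPM in siKEAP1/siCCNF cells. The siKEAP1 libraries lay above and the siCCNF libraries below all controls, while the double depletion fell within the control range. The log2 differences from siCONTROL were 0.60 ± 0.062 (adjusted p = 4.98e-06), -0.41 ± 0.062 (adjusted p = 0.000126) and 0.01 ± 0.062 (adjusted p = 0.948, all edgeR), and all calls were the same in every leave-out.

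Psmd9 and Psmd10 (gankyrin) also bind base ATPases. Psmd9 was at 37.3, 32.6 and 29.3 CPM in siCONTROL, 27.5, 21.8 and 26.1 CPM in siKEAP1, 33.8, 32.2 and 29.9 CPM in siCCNF and 29.2, 29.5 and 34.6 CPM in siKEAP1/siCCNF cells. Its siKEAP1 libraries lay below the controls (-0.40 ± 0.11, adjusted p = 0.0122, edgeR), a call lost without siKEAP1 library 2 (-0.31). Psmd10 was at 34.1, 25.8 and 24.8 CPM in siCONTROL, 33.4, 32.7 and 31.97 CPM in siKEAP1, 34.6, 34.2 and 33.95 CPM in siCCNF and 37.4, 36.6 and 41.6 CPM in siKEAP1/siCCNF cells. It rose after siCCNF (0.28 ± 0.10, kept in 3 of 12 leave-outs, 0.19 to 0.44) and after both (0.45 ± 0.10, adjusted p = 0.00349, edgeR), where its libraries lay above all controls.

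Psmg1 to Psmg4 help the alpha ring to form. Psmg4 was at 23.9, 20.6 and 16.9 CPM in siCONTROL, 15.7, 19.3 and 14.5 CPM in siKEAP1, 27.03, 28.5 and 27.5 CPM in siCCNF and 24.5, 27.8 and 30.6 CPM in siKEAP1/siCCNF cells. It rose after siCCNF (0.43 ± 0.13, adjusted p = 0.0163, edgeR) and after both (0.43 ± 0.13, adjusted p = 0.0189, edgeR), both calls being lost without siCONTROL library 3 (0.31 and 0.30) and the second without siKEAP1/siCCNF library 3 (0.35). Psmg2 fell after siCCNF (-0.34 ± 0.10, adjusted p = 0.00963, edgeR). Psmg1 and Psmg3 were not called against siCONTROL. Psmc3ip, the recombination factor, was at 17.98, 13.9 and 11.2 CPM in siCONTROL, 9.15, 10.3 and 9.52 CPM in siKEAP1, 7.93, 5.91 and 7.06 CPM in siCCNF and 7.50, 8.38 and 9.71 CPM in siKEAP1/siCCNF cells. Every depleted library lay below every control, with log2 differences of -0.57 ± 0.17, -1.04 ± 0.17 and -0.75 ± 0.17. The first lost its call without siCONTROL library 1 (-0.38), and Psmc3ip shares 21.2% of its length with Mlx on the opposite strand.

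Few members passed when siKEAP1 was added to siCCNF. Against siCCNF, 1 of 48 members was higher in the double depletion, Psmd5 (0.41 ± 0.062, adjusted p = 0.0018, edgeR), and 0 were lower, a count that was also 0 at an unadjusted p under 0.05, by DESeq2 and by limma. Among all genes, 3.00% were higher and 2.19% lower. Of the constitutive subunits, 0 were called, with a median log2 difference of 0.12. The difference was positive for all 31 with all libraries, but 30 of them had their highest value of the group in siKEAP1/siCCNF library 3. It was positive for 25 without that library or without the pair. The share of positive differences over all genes is not given, so these signs are not read as a shared rise. At an unadjusted p under 0.05, 6 of them were higher and 0 lower, and DESeq2 and limma called 0. Without siCONTROL library 1, 6 members were higher, and without the pair of libraries 7 were higher, against 7.31% higher and 6.75% lower of all genes, and the median of the constitutive subunits was 0.04.

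Adding siCCNF to siKEAP1 changed 24 members, 11 higher and 13 lower, against 24.1% and 26.9% of all genes. Of the 31 constitutive subunits, 10 were lower and 3 higher, with a median log2 difference of -0.15. The lower ones were 4 alpha genes, 5 base genes and Psmd11. Psmd11 fell by 0.58 (SE 0.055, adjusted p = 1.81e-06, edgeR), Psmd5 by 0.60 (SE 0.061) and Psme4 by 0.92 (SE 0.11, adjusted p = 1.08e-05, edgeR) on the log2 scale. Psmb10 (0.94 ± 0.10) and Psmf1 (0.57 ± 0.061) rose. Without siKEAP1 library 2 or 3 or siKEAP1/siCCNF library 3, 7, 6 and 6 members were higher, and without siKEAP1 library 2 or siKEAP1/siCCNF library 1, 8 members were lower in either case. Leaving out the pair of libraries, 13 were higher and 24 lower, against 28.9% and 29.9% of genes.

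The interaction subtracts the siKEAP1 effect seen in control cells from the one seen in cells depleted of CCNF. It passed for 5 of 48 members, 3 positive and 2 negative, against 10.6% and 10.5% of all genes. For Psmd11 it was -0.40 ± 0.078 (adjusted p = 0.00273) and for Psme4 -0.65 ± 0.15 (adjusted p = 0.00758, both edgeR), and in CCNF-depleted cells siKEAP1 gave 0.15 ± 0.055 and -0.03 ± 0.11, compared with 0.55 ± 0.055 and 0.62 ± 0.11 in control cells. For Psmd3 it was 0.59 ± 0.11 (adjusted p = 0.00148, edgeR), with 0.12 ± 0.074 in CCNF-depleted and -0.47 ± 0.075 in control cells. Keap1 itself was less depleted in the double depletion (22.2, 27.01 and 23.1 CPM) than after siKEAP1 alone (12.3, 12.8 and 12.7 CPM). Ccnf was lower after siKEAP1 alone than in siCONTROL cells. The part of either gene in these differences was not tested. Those for Psmc3 (0.43 ± 0.14) and Psmc3ip (0.86 ± 0.24) were lost in single leave-outs, in which they ran from 0.31 to 0.49 and from 0.66 to 1.01. Without siCONTROL library 1, 5 members were negative, and without siCCNF library 2 or siKEAP1 library 1, 1 was positive, and 5 were without siCONTROL library 3. Without the pair of libraries 4 members were positive and 17 negative, against 16.4% and 14.5% of genes, and the median of the constitutive subunits went from 0.06 to -0.12.

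**Figure D5:**
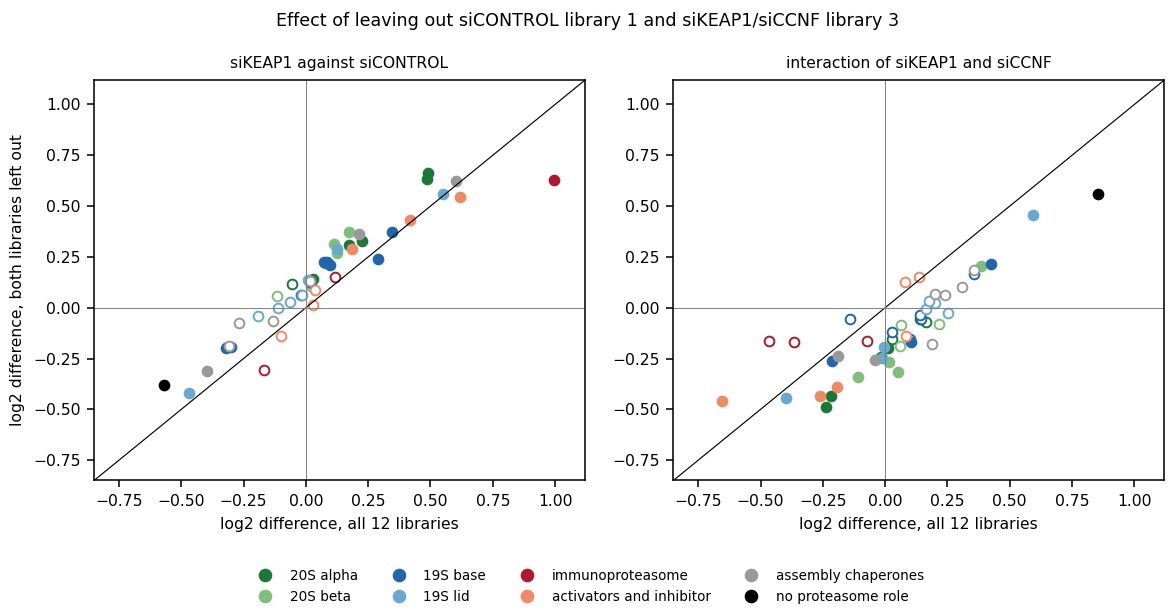
Log2 difference of the 48 tested members with all 12 libraries (horizontal axis) and without siCONTROL library 1 and siKEAP1/siCCNF library 3 (vertical axis), for siKEAP1 against siCONTROL and for the interaction, coloured by role. Filled points passed an adjusted p under 0.05 without the pair and the diagonal marks equal values. In the first panel most points lie above the diagonal (25 higher members against 9), in the second below it (17 negative members against 2).

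Proteins that work with the proteasome were taken as a further list of 15 genes. Of these, 3 rose and 4 fell after siKEAP1, 3 rose and 10 fell after siCCNF, and 4 rose and 9 fell after both. Over all genes tested 20.4% were higher and 20.2% lower, 22.5% and 25.5%, and 20.6% and 23.6% in these comparisons, so the counts after siKEAP1 lay near the background. Sem1, a lid subunit whose symbol falls outside the rule, was called higher after siCCNF and after both. It was at 158, 107 and 103 CPM in siCONTROL, 195, 150 and 167 CPM in siCCNF and 157, 151 and 189 CPM in siKEAP1/siCCNF cells. Its siCONTROL library 1 lay within the range of either depleted group. The shuttle factor genes Ubqln1, Ubqln2, Ubqln4 and Rad23b, whose products carry ubiquitinated proteins to the particle, were lower after siCCNF. Ubqln2 was at 100.1, 119 and 112 CPM in siCONTROL, 121, 116 and 112 CPM in siKEAP1, 34.6, 35.1 and 39.5 CPM in siCCNF and 48.6, 48.8 and 40.6 CPM in siKEAP1/siCCNF cells. The siCCNF and siKEAP1/siCCNF libraries lay below all others (-1.60 ± 0.091 after siCCNF, adjusted p = 2.99e-08, edgeR). Rad23b rose after siKEAP1 (0.40 ± 0.051) and fell after siCCNF (-0.47 ± 0.051), and the deubiquitinase Uchl5 fell after both single depletions (-0.36 ± 0.10 and -0.79 ± 0.10). Zfand5, an activator of the proteasome in muscle, rose after siKEAP1 (0.62 ± 0.058) and so did Ecpas (0.58 ± 0.10), an adaptor of the 26S particle. Akirin2, a factor for nuclear import of proteasomes, fell in all 3 comparisons with siCONTROL (-0.41 ± 0.081, -0.56 ± 0.081 and -0.48 ± 0.081), and the core maturation factor Pomp rose after siCCNF and after both (0.30 ± 0.11 and 0.43 ± 0.11), the first call kept in 6 of 12 leave-outs (0.23 to 0.45).

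Among 12 regulators of proteasome transcription, 4 rose and 4 fell after siKEAP1, 3 rose and 5 fell after siCCNF, and 4 rose and 5 fell after both, against the same shares of all genes. Nfe2l1, which encodes NRF1, was at 385, 417 and 410.2 CPM in siCONTROL, 364, 355 and 364 CPM in siKEAP1, 548, 527 and 525 CPM in siCCNF and 475, 455 and 460.4 CPM in siKEAP1/siCCNF cells. Its siCCNF libraries lay above all others, with a log2 difference of 0.40 ± 0.054 after siCCNF (adjusted p = 5.12e-05, edgeR) and -0.16 ± 0.054 after siKEAP1 (adjusted p = 0.0291, edgeR; kept in 7 of 12 leave-outs, -0.21 to -0.15). The small MAF genes, partners of NRF1 and NRF2, rose after siKEAP1, Mafg by 0.92 ± 0.068, Mafk by 0.95 ± 0.09 and Maff by 1.11 ± 0.18. The 3 subunits of NF-Y did not move together after siCCNF, where Nfya rose by 1.03 ± 0.089 and Nfyb and Nfyc changed by -0.87 ± 0.074 and -0.96 ± 0.066. Among genes of ubiquitin itself and its supply, Ubb fell after siKEAP1 (-0.39 ± 0.13, kept in 9 of 12 leave-outs, -0.47 to -0.24). After siCCNF Vcp, the segregase that unfolds ubiquitinated proteins, fell by 0.37 (SE 0.068), and the higher call of Rps27a was kept in 9 of 12 leave-outs (0.78 to 1.46).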

How the data were processed

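RNA of 12 C2C12 libraries was sequenced by a service provider, and the authors deposited whole-number read counts and FPKM values per gene. The counts are not normalized, and the FPKM deposited by the authors divide them by gene length and library total. The submitters' notes name HISAT2 and GRCm39, yet 53585 of the 54532 genes have the start and end of GRCm38 (GENCODE M21), so coordinates are given in GRCm38. The counting tool is not given in the sources used here. The authors' own comparisons, 15 columns of fold changes and p-values, were not used.

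Counts were filtered with filterByExpr, scaled by TMM (factors 0.971 to 1.02) and fitted in edgeR 4.0.16 (R 4.3.3) as 4 group means over all 12 libraries. Contrasts were tested by quasi-likelihood, and p-values were adjusted by Benjamini-Hochberg over 15122 genes with a threshold of 0.05. CPM and log2 CPM (prior count 2) show the values, and SE is that of the log2 difference. The steps were tested on simulated data. The 3 samples of a group are labelled biological replicates. At 18464209 to 37743198 counts per library, the lowest tested members rest on few counts, and floors cover counting error only.

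Alternatives were DESeq2 1.42.0, total library sizes, no filter, at least 10 counts in every library, a replicate block, limma 3.58.1 on log2(FPKM + 1) and log2(FPKM + 0.1), removal of the gene length trend (a spline of 5 degrees of freedom), the compared groups alone, and each library left out. Members and lists were chosen with earlier results of these data known. Each member is named; values per library are given for catalytic, immunoproteasome and activator genes and for the members of each role with the largest log2 differences, and other genes with large or called differences were added after their values were seen. Promoter sequences are those of RefSeq. Results of some genes of the wider lists are not reported here.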

Additional observations from a re-analysis of the deposited data

Results flagged for a closer look

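For 5 members, siKEAP1 had a different effect with CCNF depleted than in control cells, by the interaction test of edgeR over all 12 libraries. The difference of log2 differences was 0.43 for Psmc3 (adjusted p = 0.0406, edgeR), a call kept in 5 of 12 leave-outs. It was 0.59 for Psmd3, -0.40 for Psmd11 and -0.65 for Psme4, and these 3 calls were kept in all 12. For Psmc3ip it was 0.86 (adjusted p = 0.0215, edgeR), lost without siCCNF library 2 or siKEAP1 library 1. No group had more than 3 libraries, so single libraries were not tested for distance from their group.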

How the results depend on the processing

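Counts of calls and medians of the constitutive subunits moved with single libraries. Leaving out each library in turn gave, for members higher or lower, 9 to 21 higher after siKEAP1, 7 to 12 higher after siCCNF, 3 to 11 lower after both siRNAs, 1 to 6 higher for both against siCCNF, 6 to 14 higher and 8 to 17 lower for both against siKEAP1, and 1 to 5 positive and 2 to 5 negative for the interaction. The median log2 difference ran from -0.013 to 0.21 after siKEAP1 and from -0.061 to 0.16 for the interaction. Without siCONTROL library 1 and siKEAP1/siCCNF library 3, chosen after seeing the data, the median was 0.21 after siKEAP1 and -0.12 for the interaction, 25 members were higher after siKEAP1, 7 higher for both against siCCNF, 24 lower for both against siKEAP1, and 17 had a negative interaction, which turned from positive for Psma2 (-0.20), Psmb3 (-0.27), Psmb5 (-0.32) and Psmc5 (-0.17). Other settings that moved a count by over 1.5 times were DESeq2 (2 higher, both against siCCNF), the compared groups alone (2 lower after both siRNAs) and, for the interaction, removal of the gene length trend or of the filter (5 positive each). Other alternatives kept these counts within 1.5 times. The interaction was positive for 22 of the 31 constitutive subunits in the main fit, 25 with the length trend removed and 6 without the pair. The causes were not tested beyond the construction of each alternative. Of members called, 11 of 15 after siKEAP1, 18 of 28 after siCCNF and 9 of 18 after both were called in every leave-out.

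Correlations of same-numbered deviations ran from -0.27 to 0.20, and 6 of 12 libraries correlated best with their own number. This check cannot decide whether libraries of 1 number belong together. The deviations followed gene length in siCONTROL library 1 and siKEAP1/siCCNF library 3, which have different numbers. With a replicate block, 9 members were higher and 6 lower after siKEAP1, 10 and 17 after siCCNF, 9 and 7 after both, 1 and 0 for both against siCCNF, 10 and 12 for both against siKEAP1 and 2 and 2 for the interaction.

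Library totals limit the low members. Psmb9 rested on few reads, with 22 counts in its lowest siKEAP1 library, and Psmb8 had 53 counts in its lowest siCONTROL library. The 0 counts of Psma8 and Psmb11 allow up to 3 counts in a library.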
